A study of Homo sapiens with 6 samples.

Results

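Complement is a set of plasma and membrane proteins that marks surfaces for removal and can perforate membranes. The genes described here are 9 of its components and regulators, C3, C1R, C1S, CFB, CFD, CFI, CD46, CD55 and CD59, out of 62700 rows in a table of estimated counts per gene. They were chosen on the contrast between genotypes in these same libraries, so their differences between genotypes are given as descriptions with no test. The libraries were made from A673, an established cell line from a Ewing sarcoma, a tumour of bone and soft tissue driven by the fusion protein EWS-FLI1. The 3 parental control libraries carry the fusion (genotype EWS-FLI1 wildtype), and the 3 others are labelled EWS-FLI1 knockout. Both genotypes were grown in DMEM with fetal bovine serum, and neither group was given an agent. The labels state neither if the knockout line is clonal or pooled nor if replicates came from separate cultures. Every p-value here thus rests on spread among 3 libraries a group, possibly technical, and a difference between clones cannot be told apart from loss of the fusion.

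Complement is started by antibody and pattern recognition (classical and lectin routes) or by spontaneous turnover of C3 (alternative route). In the classical route the protease C1r activates C1s, which cleaves C4 and C2. In the alternative route factor D cleaves factor B once it is bound to C3b, the active fragment of C3, and the resulting enzyme cleaves more C3. Host cells are protected by factor I, which inactivates C3b with membrane protein CD46 as cofactor, by CD55, which speeds the decay of the C3-cleaving enzymes, and by CD59, which blocks the membrane attack complex. The liver makes most plasma complement, and fibroblasts and other mesenchymal cells also make C3, factor B, C1r and C1s.

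Library totals lay between 301605666 and 342624492 estimated counts, and 3 counts correspond to between 0.00752 and 0.0117 counts per 1e6 (CPM) scaled with TMM factors, the level unit used below. Means are given ± SD over the 3 libraries of a genotype, and log2 fold changes compare knockout with parental and carry standard errors (SE) from an edgeR quasi-likelihood fit over 28485 genes. As a check of the labels, 7 genes that EWS-FLI1 is known to activate fell in the knockout libraries (edgeR adjusted p between 6.5e-27 and 6.31e-19). PRKCB fell from 393 ± 4.09 to 3.46 ± 0.149 CPM, NR0B1 from 18.1 ± 1.21 to 0.212 ± 0.0256 CPM and NKX2-2 from 76.3 ± 4.68 to 12 ± 0.14 CPM. LOX, a gene it is known to repress, rose from 3.57 ± 0.187 to 794 ± 32.6 CPM (adjusted p = 5.41e-27). All 9 complement genes passed the filter on low counts. In 8 of them every knockout library lay above every parental library, and in CFD every knockout library lay below. The groups were likewise separate in 76.7% of all genes tested, knockout above in 37.1% and below in 39.5%, so separation alone sets no gene apart here.

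**Figure D1:**
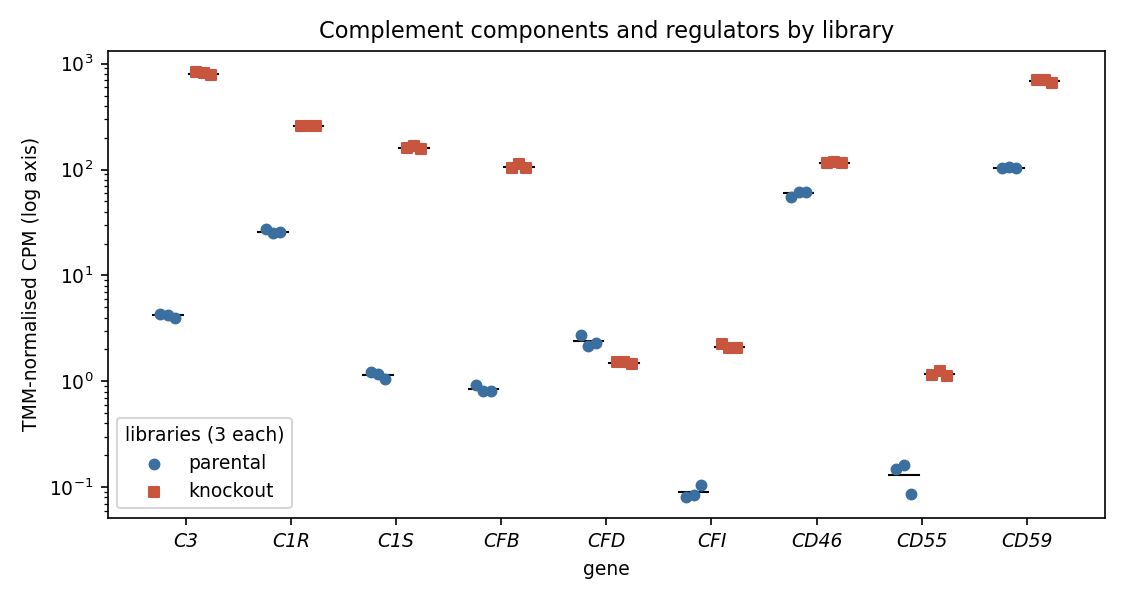
TMM-normalised CPM (log axis) of the 9 genes in the 3 parental (circles) and 3 knockout (squares) libraries, with a line at each mean. C3 moved from about 4.18 to 805 CPM, and CFD is the gene whose knockout libraries lie below the parental ones.

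C3, the protein on which all routes converge, had the largest fold of the 9 genes. The gene lies on the minus strand of chromosome 19 from 6677704 to 6720650 (GRCh38.p14 in RefSeq, as for all positions here). Parental libraries had 4.31, 4.24 and 3.99 CPM of it, while knockout libraries had 834, 808 and 773 CPM. The genotypes were thus far apart and the libraries within each close together, with a log2 fold change of 7.59 (SE 0.066), or 193-fold. The parental raw count was 0.761% of the knockout count. Among 3251 genes with a mean of at least 20000 knockout counts, the 20 with the lowest such share kept a median of 0.586% in the parental libraries. The shares of C3 and of LOX (0.657%) lie near that level, and whether reads from knockout libraries contribute to these parental counts was not tested. In the other direction PRKCB kept 0.601% in knockout libraries, where the matching median was 0.617%, with the same limit. In bulk RNA, fewer cells that express a gene and less RNA per cell cannot be told apart.

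The classical proteases C1R and C1S are neighbours on chromosome 12 with opposite strands, separated by 9186 bases. C1R (7080219 to 7092445, minus strand) was read at 27.2, 25 and 25.7 CPM in parental cells, compared with 255, 256 and 255 CPM after knockout. The parental cells thus already carried C1R transcripts, and the log2 fold change was 3.30 (SE 0.052), or 9.83-fold. C1S (7060718 to 7071032, plus strand) held 1.21, 1.16 and 1.04 CPM against 160, 165 and 156 CPM. Its log2 fold change of 7.14 (SE 0.069), or 141-fold, was larger than that of its neighbour, from a parental raw count of 1.04% of the knockout count. Per kilobase of the principal transcript, parental libraries held 26.5 ± 1.9 times as much C1R as C1S, and knockout libraries 1.84 ± 0.05 times as much. With the median length of the protein-coding transcripts these ratios were 68.1 ± 4.82 and 4.73 ± 0.123, so their size depends on the length used. C1RL, the C1r-like gene separated from C1R by 2108 bases on the same strand, rose from 3.20 ± 0.0877 to 23.5 ± 1.01 CPM (log2 fold change 2.88, SE 0.062, edgeR adjusted p = 7.48e-21). In the GENCODE 29 transcripts, 21.9% of the 31-base words of C1R also stand in C1RL, so part of the reads of each could be assigned to the other. C1S shares 4.55% of its words with its neighbour EMG1, whose row held 8937 to 9380 counts in parental and 5412 to 5513 in knockout libraries.

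The proteases of the alternative route differed in opposite directions between genotypes. CFB, the catalytic subunit of the alternative C3-cleaving enzyme, lies on chromosome 6 from 31946095 to 31952084 on the plus strand. Parental levels were 0.914, 0.818 and 0.805 CPM, and knockout levels were 104, 112 and 104 CPM. These groups stood more than 100 CPM apart, and the log2 fold change was 6.98 (SE 0.071), or 126-fold, with a parental raw count of 1.16% of the knockout count. An annotated readthrough transcript of C2 and CFB contains 69.2% of the 31-base words of CFB, yet its row held between 0 and 26 counts. C2, the classical counterpart of factor B, ends 422 bases before CFB starts and had 0.523 ± 0.0244 and 0.718 ± 0.0357 CPM. C2 rose by 0.46 (SE 0.15, edgeR adjusted p = 0.00963), a call lost with total counts only (0.03, adjusted p = 0.825) and with upper quartile factors (0.25, adjusted p = 0.112); it was named after its values were seen. CFD encodes factor D, the protease that cleaves factor B, and lies on chromosome 19 from 859664 to 863641 on the plus strand. Its parental levels were 2.72, 2.15 and 2.31 CPM, and its knockout levels 1.53, 1.52 and 1.46 CPM. This lower level in all knockout libraries gave a log2 fold change of -0.67 (SE 0.11), so the parental level was 1.59 times the knockout level. Per kilobase, the ratio of CFB to CFD was 0.149 ± 0.00985 in parental and 29.7 ± 1.1 in knockout libraries, or 0.467 ± 0.0302 and 93.3 ± 3.77 with the median length.

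The 250 bases before the annotated start were searched for short motifs. RefSeq entries on GRCh38.p14 were at hand for 7 of the 9 genes, not for C3 and C1S. CFB and CFD are printed for their opposite direction, C1R (its second annotated start) and CD59 (its first) because they share a motif with CFB. Capitals mark matches on either strand to 3 motifs. The first is the core interferon-stimulated response element, bound by interferon regulatory factors. The second is the STAT factor motif, TTCNNNGAA. The third is the TATA box, searched as TATAAA. These motifs were chosen after the sequences had been seen.
CFB, chr6:31945845-31946094, plus strand: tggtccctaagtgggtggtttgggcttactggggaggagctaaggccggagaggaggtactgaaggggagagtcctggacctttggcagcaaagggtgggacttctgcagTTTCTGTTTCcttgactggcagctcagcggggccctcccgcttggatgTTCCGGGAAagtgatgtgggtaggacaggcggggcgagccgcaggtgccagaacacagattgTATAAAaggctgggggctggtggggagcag
C1R, chr12:7091894-7092143, minus strand: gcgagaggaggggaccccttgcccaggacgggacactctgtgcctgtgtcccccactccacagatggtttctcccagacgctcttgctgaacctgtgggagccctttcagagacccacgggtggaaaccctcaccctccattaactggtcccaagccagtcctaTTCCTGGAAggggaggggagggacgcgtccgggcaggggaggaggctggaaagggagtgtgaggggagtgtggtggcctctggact
CD59, chr11:33736480-33736729, minus strand: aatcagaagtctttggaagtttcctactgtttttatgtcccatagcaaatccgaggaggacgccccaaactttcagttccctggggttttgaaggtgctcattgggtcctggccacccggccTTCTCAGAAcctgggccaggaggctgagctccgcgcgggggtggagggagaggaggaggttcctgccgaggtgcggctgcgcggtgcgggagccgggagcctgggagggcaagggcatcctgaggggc
CFD, chr19:859414-859663, plus strand: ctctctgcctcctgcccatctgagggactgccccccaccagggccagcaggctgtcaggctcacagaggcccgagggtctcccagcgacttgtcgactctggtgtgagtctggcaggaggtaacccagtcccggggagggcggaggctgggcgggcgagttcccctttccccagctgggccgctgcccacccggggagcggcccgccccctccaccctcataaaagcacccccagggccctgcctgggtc

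In the CFB stretch the interferon-type match begins 140 bases, the STAT-type match 92 bases and the TATA box 30 bases before the start. The interferon-type match was found in 3.02% of 35116 promoter stretches of this length, the STAT-type match in 6.57% and the TATA box in 10.7%. No other printed or unprinted stretch of the 7 genes searched held the interferon-type match or the TATA box, and C3 and C1S were not searched. The STAT-type match also begins 86 bases before the second start of C1R and 128 bases before the first start of CD59. The CFD stretch held CCCGCCC at 102 bases (on the minus strand) and 49 bases before the start, a motif in 31.5% of stretches. The same motif stood 47 bases before the start of CD55 and 60 bases before the second start of CD59. Tandem GGAAGGAA, the short form of the repeats that EWS-FLI1 is known to bind, was found in no stretch of the 7 genes and in 3.06% of all. CCGGAAG, a core motif of ETS factors such as FLI1, was found in both overlapping CD46 stretches and in 8.52% of all. It begins 176 bases before the first and 192 bases before the second CD46 start, on the opposite strand. These matches describe letters in a short window and show neither binding nor a cause.

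CFI, the protease that inactivates C3b and C4b, was among the lowest of the 9 genes. It lies on chromosome 4 from 109730982 to 109801999 on the minus strand and was read at 0.0814, 0.0847 and 0.105 CPM in parental cells, from 31 to 42 counts each. The knockout libraries held 2.27, 2.04 and 2.05 CPM, all above the parental ones, for a log2 fold change of 4.54 (SE 0.16), or 23.3-fold. A readthrough gene that spans CFI, listed as ENSG00000285330, contains 63.5% of its 31-base words and held on average 0.214 CPM in parental and 0.606 CPM in knockout libraries. With both rows added, the level was 0.304 ± 0.0464 CPM in parental and 2.73 ± 0.104 CPM in knockout libraries, a log2 ratio of 3.16 in place of 4.55 for the ratio of mean levels of CFI alone. The sum was chosen after its values were seen, and it shows that the size of the CFI difference rests on how reads were split between these rows.

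The membrane regulators were all higher in the knockout libraries, by unequal amounts. CD46 (chromosome 1, 207752038 to 207795516, plus strand) was at 55.5, 61.9 and 61.7 CPM before and at 115, 119 and 114 CPM after knockout. Its groups did not overlap, and its log2 fold change of 0.96 (SE 0.052) was the smallest of those above 0, or 1.94-fold. CD55 lies 391071 bases before CD46 on the same strand (207321678 to 207360966). Its parental levels were 0.147, 0.161 and 0.0853 CPM, from 34 to 61 counts each, against 1.14, 1.26 and 1.12 CPM in knockout libraries. The parental libraries varied most here, and the log2 fold change was 3.16 (SE 0.20), or 8.92-fold. CD59 (chromosome 11, 33703010 to 33736479, minus strand) was at 104, 105 and 104 CPM in parental cells, against 705, 703 and 653 CPM without the fusion. It was abundant in both genotypes, with a log2 fold change of 2.71 (SE 0.051), or 6.56-fold. It shares 7.38% of its words with AL049629.2, whose row held 101 to 408 counts. Per kilobase of the principal transcript, CD59 made up 42.8% ± 1.45 of the summed level of these regulators in parental and 71.5% ± 0.651 in knockout libraries. With the median length these shares were 88.2% ± 0.601 and 96.2% ± 0.125.

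Levels of different genes were compared per kilobase of the principal GENCODE 29 transcript. In parental libraries the order was CD46 at 18.2 ± 1.11, CD59 at 13.7 ± 0.0757, C1R at 9.76 ± 0.423, CFD at 1.99 ± 0.245, C3 at 0.794 ± 0.032, C1S at 0.370 ± 0.0284, CFB at 0.295 ± 0.0208, CD55 at 0.0453 ± 0.0139 and CFI at 0.0419 ± 0.00592 CPM per kilobase. The membrane regulators CD46 and CD59 thus stood at the top in the parental cells, while CD55 was near the bottom, and the libraries of CD55 and CFI overlapped. In knockout libraries the order was C3 at 153 ± 5.82, C1R at 96.0 ± 0.217, CD59 at 90.0 ± 3.86, C1S at 52.1 ± 1.47, CFB at 37.3 ± 1.61, CD46 at 35.4 ± 0.807, CFD at 1.25 ± 0.0315, CFI at 0.982 ± 0.0602 and CD55 at 0.406 ± 0.0262 CPM per kilobase. C3 stood first, and CFB and CD46 overlapped. The ratio of C3 to CD59 went from 0.0581 ± 0.00226 to 1.70 ± 0.0265, and that of C3 to CFI from 19.3 ± 3.25 to 156 ± 6.56. With the median length they went from 0.0507 ± 0.00198 to 1.48 ± 0.0249 and from 154 ± 25.9 to 1240 ± 47.7. The length alternative was added after the values had been seen. The isoforms in these cells were not analysed here. With the median length of the protein-coding transcripts, the knockout order began with C3, CD59, C1R, CFB, C1S and CD46. CFB was then at 140 and CD46 at 36.4 CPM per kilobase in knockout libraries. In parental libraries the order became CD59, C1R, CD46, C3, CFD, CFB, C1S, CD55 and CFI.

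**Figure D2:**
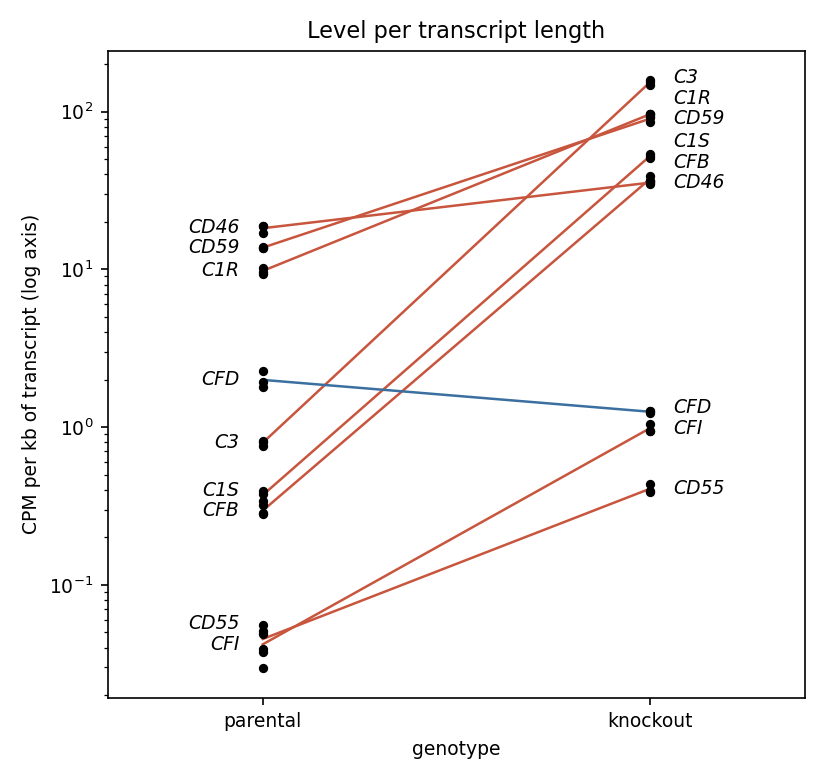
CPM per kilobase of principal transcript (log axis) in parental and knockout libraries, with 1 point per library and lines joining the means (red, higher in knockout; blue, lower). C3 moved from 0.794 to 153 and crossed CD46 and CD59, and CD55 stayed at the low end with 0.0453 and 0.406.

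Other genes of the system were tested from a list of 56 recognition molecules, proteases, components, regulators and receptors. Of the 37 that passed the filter, 18 rose, 11 fell and 8 did not pass. The median of their log2 fold changes was 0.37. The excess of risen genes depends on the scaling, as 13 rose and 13 fell with total counts only, and 13 rose and 12 fell with upper quartile factors. Over all genes tested, 73.8% passed, 36.3% as higher and 37.5% as lower, with a median of -0.06. Of the list, 9 genes had no more than 3 counts in any library, among them the C1q chains C1QA and C1QB and the mannose-binding lectin MBL2. The third C1q chain, C1QC, had at most 6 counts. Transcripts of the proteases C1R and C1S were thus abundant in knockout libraries that held nearly none of their partner C1q.

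The C4 genes, whose product is cleaved by C1s, rose. C4A and C4B are near-identical copies on chromosome 6, so reads may be split wrongly between them, and their sum is given, 4.99, 4.37 and 5.01 CPM for parental against 282, 284 and 276 CPM for knockout. The rows taken alone changed by 5.32 (SE 0.073, edgeR adjusted p = 6.9e-22) for C4A and 7.07 (SE 0.070, adjusted p = 1.18e-26) for C4B. Of the terminal components, C7 fell from 12 ± 0.64 to 2.76 ± 0.0688 CPM (-2.12, SE 0.070, adjusted p = 2.25e-17) and C6 from 1.90 ± 0.191 to 0.398 ± 0.0301 CPM (-2.26, SE 0.14, adjusted p = 1.68e-12), both parts of the membrane attack complex. C8G, a subunit of C8 in the same complex, rose from 0.189 ± 0.0487 to 0.455 ± 0.141 CPM (1.27, SE 0.25, adjusted p = 0.000214); it was named after its values were seen. C5 rose by 0.27 (SE 0.086, adjusted p = 0.00767) to 3.82 ± 0.0418 CPM, with -0.15 (adjusted p = 0.109) with total counts only and 0.07 (adjusted p = 0.459) with upper quartile factors. PTX3, a pentraxin that binds C1q, rose from 0.366 ± 0.0171 to 31.7 ± 1.26 CPM (6.44, SE 0.076, adjusted p = 1.69e-25). COLEC12, a scavenger receptor of the collectin family, rose by 1.10 (SE 0.070, adjusted p = 3.1e-12). Another collectin, COLEC11, fell from 0.849 ± 0.0503 to 0.0481 ± 0.0122 CPM (-4.13, SE 0.22, adjusted p = 1.59e-13). It lay below 1 CPM and was named after its values were seen. Of the 6 recognition molecules tested 4 rose and 1 fell, where 36.3% and 37.5% of all genes tested did. MASP2, the main protease of the lectin route, had 1.30 ± 0.135 and 1.41 ± 0.184 CPM and did not pass (0.12, SE 0.13, adjusted p = 0.407), with values below 0 on scaling by total count only (-0.30) or upper quartile (-0.08).

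Soluble regulators also split. CLU (clusterin), which binds terminal complexes in plasma, rose from 33.0 ± 1.03 to 1440 ± 41.4 CPM (5.45, SE 0.058, edgeR adjusted p = 3.1e-26). VTN (vitronectin), a protein with the same action, rose by 1.03 (SE 0.15, adjusted p = 1.61e-06) to 1.08 ± 0.0865 CPM. SERPING1, the inhibitor of C1r and C1s, fell from 12 ± 0.411 to 5.37 ± 0.303 CPM (-1.16, SE 0.065, adjusted p = 3.41e-13), the direction opposite to that of the proteases it inhibits. CPB2, a carboxypeptidase that inactivates C3a and C5a, fell from 3.71 ± 0.236 to 0.0851 ± 0.0179 CPM (-5.44, SE 0.16, adjusted p = 1.43e-18). Of the 8 receptors tested 3 rose and 4 fell, where 36.3% and 37.5% of all genes tested did. ITGB2, the common chain of complement receptors 3 and 4, fell from 51.0 ± 4.56 to 0.776 ± 0.0637 CPM (-6.04, SE 0.085, adjusted p = 1.97e-22). The other chains of these receptors were low in both genotypes. ITGAM had 0.146 CPM in parental and 0.071 CPM in knockout libraries, and ITGAX 0.176 and 0.126 CPM. Both were named after their values were seen. C1QBP, a mostly mitochondrial protein that can bind C1q, fell from 337 ± 7.38 to 93.0 ± 1.83 CPM (-1.86, SE 0.048, adjusted p = 2.19e-19). CSMD3, which carries complement-control repeats, fell by 3.53 on the log2 scale (SE 0.18, adjusted p = 9.67e-14).

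**Figure D3:**
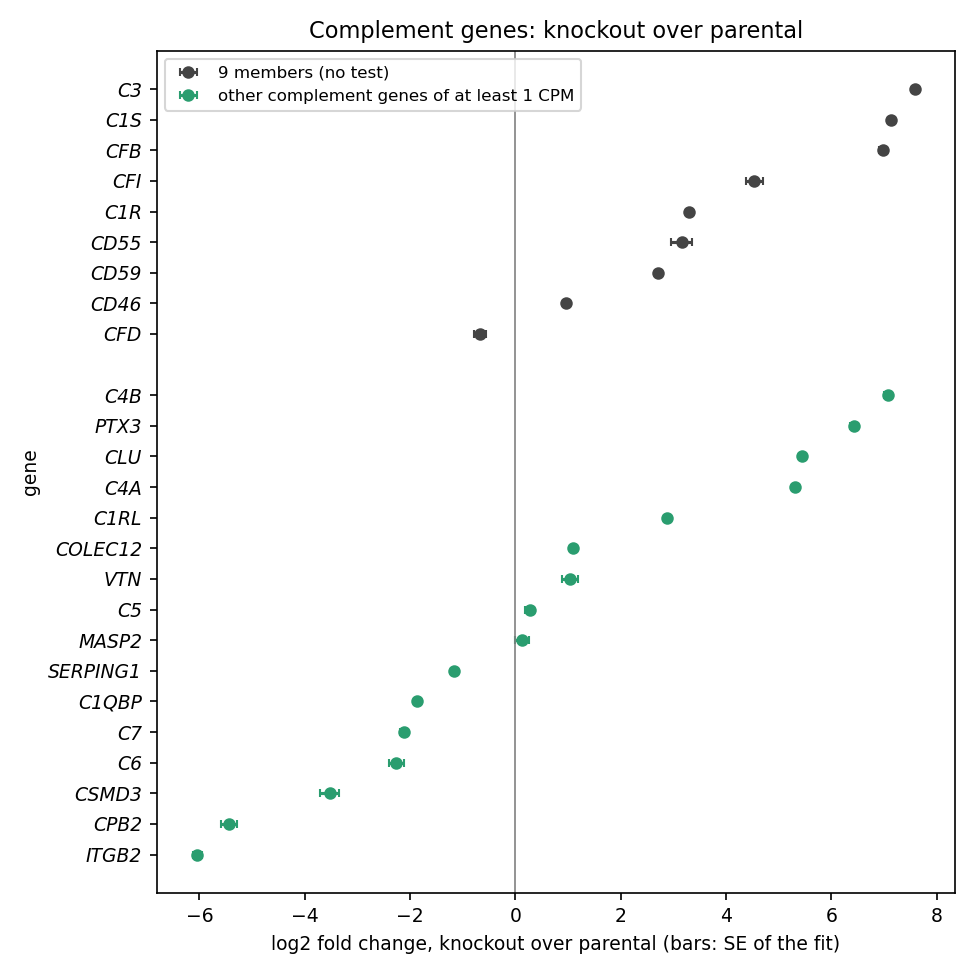
Log2 fold change, knockout over parental, with the SE of the fit as bars, for the 9 members (grey, given without a test) and the other complement genes of at least 1 CPM (green). Values run from 7.59 for C3 to -6.04 for ITGB2, and CFD is the member below 0.

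CD55 and CD59 are held on the membrane by a glycosylphosphatidylinositol (GPI) anchor, whose assembly enzymes did not move as a group. Of 31 such genes 13 rose, 12 fell and 6 did not pass. The median of their log2 fold changes was -0.05. Over all genes tested, 36.3% rose and 37.5% fell. The balance among the GPI anchor genes depends on the scaling, as 7 rose and 22 fell with total counts only. PGAP4, which adds a side-chain sugar to the anchor, rose from 0.0914 ± 0.0173 to 16.2 ± 0.904 CPM (7.46, SE 0.11, edgeR adjusted p = 5.8e-24), and PIGZ, which adds a side-chain mannose, rose by 2.07 (SE 0.10, adjusted p = 2.73e-14). The parental raw count of PGAP4 was 0.831% of the knockout count, so the limit given for C3 holds for it. PIGT, of the complex that attaches anchors to proteins, rose by 1.35 (SE 0.048, adjusted p = 8.93e-17) and the remodelling enzyme MPPE1 by 1.14 (SE 0.058, adjusted p = 6.42e-14). PIGY and PYURF come from 1 transcript and hold identical counts, so they were counted once.

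Interferon-gamma, interleukin-1, interleukin-6 and tumour necrosis factor are known inducers of C3, CFB and other complement genes. Of 17 receptors and transcription factors of these and related signals 15 rose and 2 fell. The median of their log2 fold changes was 1.92. Over all genes tested, 36.3% rose and 37.5% fell, with a median of -0.06. The list also holds OSMR, STAT2 and IRF9, which belong to related signals. It was chosen with earlier results of these data known, so its counts are a description and no independent evidence. IL1R1, the interleukin-1 receptor, rose from 0.270 ± 0.0167 to 63.0 ± 4.38 CPM (7.87, SE 0.084, edgeR adjusted p = 3.16e-26), while its partner IL1RAP fell from 369 ± 16.5 to 41.5 ± 1.96 CPM (-3.15, SE 0.056, adjusted p = 1.84e-22). The parental raw count of IL1R1 was 0.629% of the knockout count, so the limit given for C3 holds here too. IRF1, an interferon regulatory factor, rose from 3.98 ± 0.0649 to 172 ± 6.99 CPM (5.43, SE 0.059, adjusted p = 4.55e-26), and CEBPD, a factor of the acute-phase response, from 1.97 ± 0.152 to 65.3 ± 0.866 CPM (5.05, SE 0.065, adjusted p = 7.23e-25). The second gene that fell, CEBPB, moved little (-0.16, SE 0.056, adjusted p = 0.0131); it was named after its values were seen, and its call was lost with the DESeq2 Wald test and without parental replicate 1 or knockout replicate 3. These are transcript levels side by side, and whether any of these signals acts on the complement genes here was not tested.

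**Figure D4:**
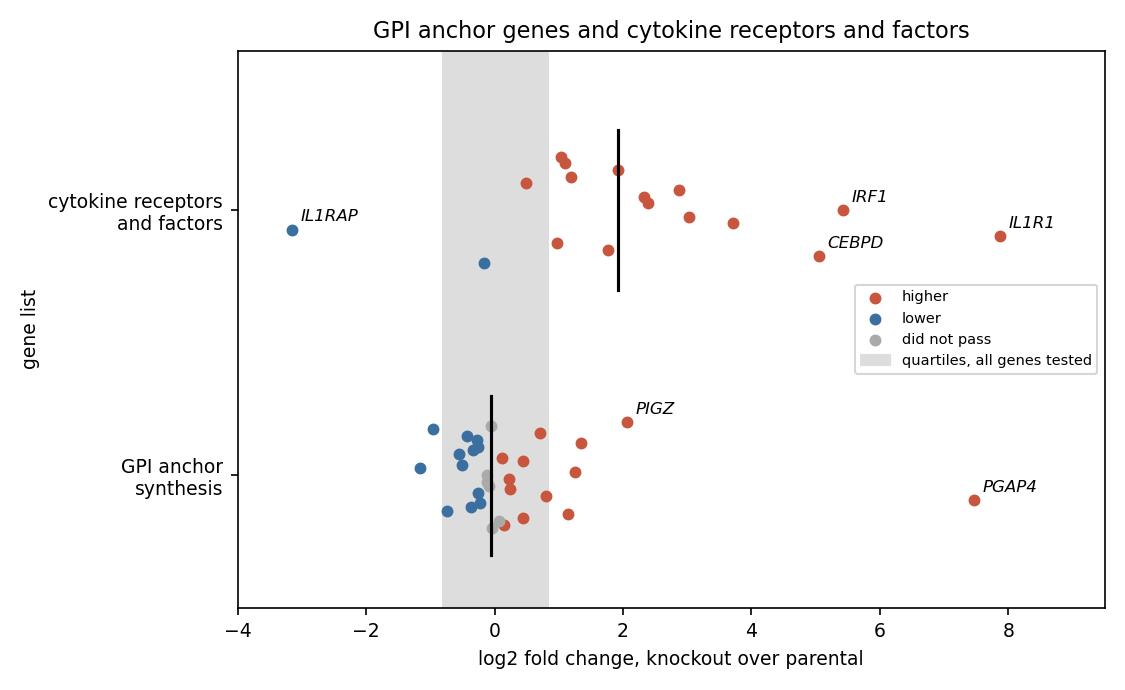
Log2 fold change, knockout over parental, of each gene of the GPI anchor list and of the cytokine receptor and factor list (red, higher; blue, lower; grey, did not pass), with a black line at the list median and a band for the quartiles of all genes tested, -0.80 and 0.83. The medians are -0.05 and 1.92. Both lists were chosen with earlier results of these data known.

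Markers of the other cell types that make complement were low. The summed level of 12 leukocyte markers ran from 6.17 to 7.14 CPM before and from 14.1 to 16 CPM after knockout, most of it from the lysosomal gene CD68. Without CD68 the sums were 1.34 to 1.48 and 2.79 to 3.23 CPM, and PTPRC (CD45) rose from 0.127 ± 0.0272 to 1.49 ± 0.157 CPM (edgeR adjusted p = 5.89e-14). CSF1R also rose, from 0.301 ± 0.0114 to 0.725 ± 0.0811 CPM (adjusted p = 6.2e-07). AIF1 fell from 0.211 ± 0.0204 to 0.00879 ± 0.00424 CPM (adjusted p = 1.66e-09). Of the 9 leukocyte markers tested 4 rose and 2 fell, where 36.3% and 37.5% of all genes tested did. TYROBP and CD3E had at most 6 and 3 counts. The part of these cells in the result was not tested. The summed level of 13 hepatocyte markers ran from 4.17 to 4.62 CPM before and from 2.26 to 4.63 CPM after knockout, and of the 8 tested 2 rose and 3 fell. Knockout replicate 3 stood apart, with 189 counts of albumin (ALB) against 2 to 7 in the other libraries. Its counts of APOA1, APOA2, FGA, FGG, HP and SERPINA1 were also the highest of all libraries, unlike those of the other markers. AHSG had 74 counts there, against 14 and 5 in the other knockout libraries and 317 to 356 in parental ones. None of the 9 complement genes had its highest knockout level in knockout replicate 3, and their median log2 fold change was 3.31 without it and 3.30 with it. With all libraries that median is the value of C1R. Where the hepatocyte transcripts in knockout replicate 3 came from, and whether that source added to the complement counts, was not tested.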

How the data were processed

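RNA from 3 parental and 3 EWS-FLI1 knockout A673 libraries was enriched for polyadenylated transcripts, per the labels' protocols. The authors deposited estimated counts per gene, made with kallisto 0.48.0 on build hg38, per the submitters' processing notes. The sources used here do not give the summing to genes, the annotation release or strandedness, so reads of overlapping or antisense genes may not be told apart.

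The estimated counts were rounded and fitted in R 4.3.3 with edgeR 4.0.16 (filterByExpr at a minimum count of 10, TMM factors, robust quasi-likelihood test, genotype as the only term, two-sided, Benjamini-Hochberg adjustment over 28485 genes at 0.05). The fit was also run on simulated counts in which few genes changed, with random direction and a fixed spread. In the data 73.8% of genes were called, so that run could not check the scaling. Replicates of a genotype all differed by more than sampling noise (chi-square per degree of freedom from 11.1 to 78.1). Promoters and gene positions came from RefSeq (GRCh38.p14), and lengths and shared 31-base words from GENCODE 29.

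The members and lists were chosen with earlier results of these data known. Named genes are the members, other complement genes of at least 1 CPM in a genotype, up to 4 genes of each further list with the smallest adjusted p, and the label check genes. COLEC11, ITGAM and ITGAX were named later and were not followed over the alternatives. From the complement list, 1 gene is not reported here. The 14 alternatives changed the scaling, filter or test (DESeq2 1.42.0, limma-voom 3.58.1), added the replicate number or left out a library.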

Additional observations from a re-analysis of the deposited data

How the results depend on the processing

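The sign of each of the 9 members' log2 fold changes held under every alternative that tested it. CD46 ranged from 0.53 to 1.00, CFD from -1.09 to -0.55 and C3 from 7.17 to 7.63. The median of the 9 was 3.30, and 2.87 with total counts only and 3.09 with upper quartile factors, which moved the median of all genes by -0.42 and -0.20. CD55 was not tested at a minimum of 1 CPM in 3 libraries, so that setting gives no such median. With that filter, 13625 genes were called (6650 higher, 6975 lower) and 14 other complement genes (7 higher, 7 lower), since fewer genes were tested. Risen genes made up 49.1% of all calls, 33.0% with total counts only and 40.5% with upper quartile factors.

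With total counts only, 7 GPI anchor genes rose and 22 fell, MASP2 had -0.30 and C5 -0.15; MASP2 had -0.08 with upper quartile factors. Fallen cytokine input genes numbered 1 with the DESeq2 Wald test and from 1 to 2 with a library left out. Of the other named genes' values, 17 lost their call with the same sign, and that of C5 with total counts only lost it with the sign turned. The hepatocyte markers HPX and AHSG lost theirs most often, AHSG with adjusted p = 0.0521 without a filter on low counts.

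Same-numbered libraries did not deviate together (correlations of -0.16, -0.06 and 0.03, against -0.13 to 0.16 for differently numbered ones). With 3 libraries a group this cannot show if the numbers pair them, and the labels do not say. With a replicate block, 20418 genes were called against 21015 without, and 28 other complement genes against 29.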
